A study of Homo sapiens with 6 samples.

Results

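Metallothioneins are small proteins rich in cysteine that bind zinc, copper and cadmium. The set described here holds 8 gene symbols of 59050 in the count files, chosen by name: MT1E, MT1F, MT1G, MT1H, MT1M and MT1X, which encode type 1 metallothioneins, MT2A, which encodes the type 2 protein, and MTF1, which encodes the transcription factor that responds to metals. MTF1 is a zinc finger protein that binds metal response elements in promoters when free zinc increases. The metallothionein genes and SLC30A1, which encodes a zinc exporter of the plasma membrane, are its best known targets. Metallothionein genes are also known to respond to cadmium, oxidative stress and glucocorticoids, and individual copies are silenced in many carcinomas.

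Read counts per gene came from RNA-seq of 6 libraries of H2122 cells, a line established from a human lung cancer. The 3 knockout libraries carried the genotype SMARCA4 KO and the 3 parental libraries the genotype WT, and cells of both groups were treated with vehicle. The SMARCA4 protein is a motor subunit of SWI/SNF complexes, which move nucleosomes, and the contrast asks how loss of the gene alters expression. Sample titles give the number 1 for all 3 knockout libraries and the numbers 1, 3 and 6 for the parental ones. The labels do not say whether this number marks a clone, or whether the replicates came from different cultures. The spread behind each p-value may therefore be technical. If it marks a clone, the knockout group is repeats of a single clone.

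Libraries held 55120937 to 59917980 reads assigned to genes. Levels are CPM, a gene's reads scaled to a common library size with TMM factors, and the limit set by 3 counts was 0.0497 to 0.0544 CPM per library. SMARCA4 itself stood at 19.3 to 24.9 CPM in knockout and 214 to 335 CPM in parental libraries. Keratin and other epithelial markers summed to 3157 to 3422 CPM in knockout and 6931 to 7700 CPM in parental libraries. The 6 lung lineage markers together reached at most 1.64 CPM in knockout and 1.46 CPM in parental libraries, and the 5 blood cell markers summed to 0.399 to 0.646 CPM in knockout and 1.12 to 1.51 CPM in parental libraries, with PTPRC at 0 reads in each. Fibroblast markers summed to 48.4 to 52.9 CPM in knockout and 39.2 to 109.7 CPM in parental libraries, and endothelial markers to at most 1.4 CPM in knockout and 0.56 CPM in parental libraries. The part of these marker differences in the results was not tested. The second principal component, with 18.3% of the variance, separated parental replicate 3 from the rest, so results are also given without that library. In bulk RNA, fewer cells expressing a gene and less of its RNA per cell cannot be told apart.

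In these cells MT2A supplied nearly all metallothionein reads, and 4 of the 7 metallothionein genes had at most 1 read in any library. MT2A made up 97.6% to 98.0% of the reads of the 7 genes in knockout libraries and 96.3% to 97.3% in parental libraries. With all family symbols in the files counted, MT1A among them, the share was 95.3% to 95.7% in knockout libraries. It was then 96.4%, 96.7% and 91.4% in parental replicates 1, 2 and 3, so the higher share in knockout held for the 7 genes only. MT2A and MT1X were each higher in every knockout library than in any parental library, but neither passed the test over all 6 libraries. MTF1 fell, to a mean of 30.2 CPM in knockout against 60.9 CPM in parental libraries.

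MT2A lies on the plus strand of chromosome 16, from 56608199 to 56609497 on GRCh38, in a cluster with the other genes. Its coding sequence has 186 bases, and 20 of its 61 codons before the stop are TGT or TGC, the codons for cysteine that bind metal. It is printed first with those codons in capitals. The other sequence, of the detected type 1 gene MT1X (56682424 to 56684196), has in capitals each base that differs from MT2A.
MT2A: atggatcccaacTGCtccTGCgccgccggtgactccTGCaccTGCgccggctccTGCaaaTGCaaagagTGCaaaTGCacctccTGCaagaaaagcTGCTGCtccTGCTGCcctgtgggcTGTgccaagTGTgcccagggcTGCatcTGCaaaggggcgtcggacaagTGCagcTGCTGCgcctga
MT1X: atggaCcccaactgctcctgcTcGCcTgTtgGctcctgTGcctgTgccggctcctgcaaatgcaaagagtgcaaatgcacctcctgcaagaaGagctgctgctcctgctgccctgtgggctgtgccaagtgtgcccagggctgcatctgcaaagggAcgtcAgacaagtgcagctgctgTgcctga
The sequences are from the GENCODE 29 transcripts. MT1X differs from MT2A at 14 of 186 bases, and the longest stretch identical in both is 63 bases.

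Because the copies are so alike, a read can match several of them. Of the windows of 50 bases along its main transcript, MT1X shared 45.1% with at least 1 other gene, MT1H 20.4%, MT1G 20.2%, MT1M 7.05%, MT1E 5.34%, MT2A 4.88% and MT1F 3.59%. With windows of 100 bases, MT1X still shared 19.1% and MT1H 3.36%, while the other 5 metallothionein genes shared none. Of the 181 shared MT1X windows of 50 bases, 117 were shared with AC026461.1, 47 with MT1G and 14 with MT2A. AC026461.1 overlaps MT1X in position, so its part of the share is not likeness between copies. It shares 18.1% of the exon bases of MT1X on the same strand and had 0 reads in all 6 libraries. The MT1X share at 100 bases was not split by gene, and MT1G and MT2A shared none at that length. That 19.1% is therefore no measure of likeness between copies. MT1X counts are uncertain because of the overlap with AC026461.1 and of the windows shared with other copies. The read length is not given in the sources used here. Reads with no unique position were kept apart by the counting and made up 4.99% to 5.05% of each knockout file and 5.12% to 5.29% of each parental file.

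**Figure D1:**
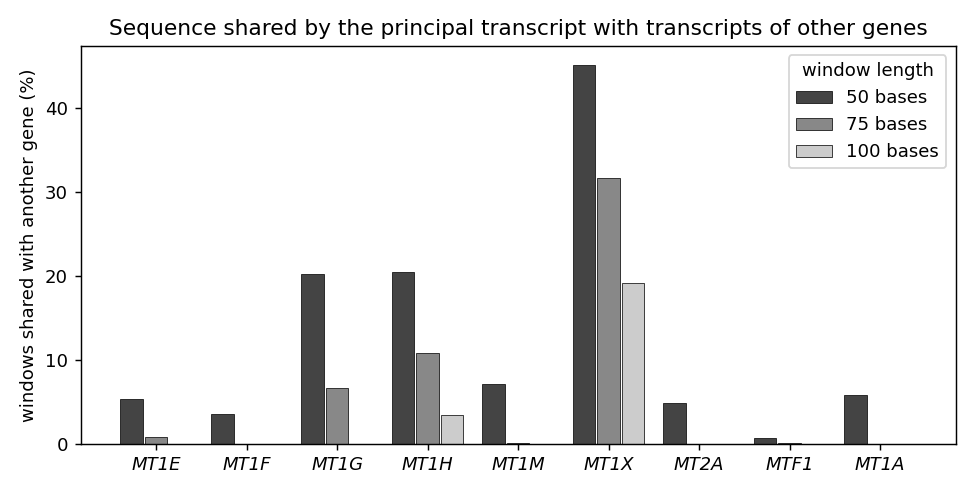
Share of windows of 50, 75 and 100 bases along the principal transcript of each gene that occur exactly in a transcript of another gene, in percent (y axis), for the 8 symbols and MT1A (x axis). MT1X had the highest share at each length, 45.1% at 50 bases and 19.1% at 100 bases. Its share includes windows of AC026461.1, a gene that overlaps MT1X in position.

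MT2A had 9578, 8889 and 9855 reads in knockout libraries, and 5236, 6275 and 1313 reads in parental libraries. Scaled, that was 169, 161 and 163 CPM in knockout and 91.7, 105 and 23.1 CPM in parental libraries. The knockout libraries lay close together, while parental replicate 3 stood well under the other 2 parental libraries, and the groups did not overlap. The means were 165 ± 4.18 CPM in knockout and 73.3 ± 44.0 CPM in parental libraries (SD, n = 3 each), a log2 fold change of 1.17 (SE 0.52). That difference did not pass edgeR's quasi-likelihood test (adjusted p = 0.151). Without parental replicate 3 the log2 fold change was 0.69 and passed (adjusted p = 9.58e-07). With each of the other 5 libraries left out in turn it did not pass, at 1.16 to 1.51, with an adjusted p of 0.123 to 0.282 by edgeR. DESeq2 over all 6 libraries gave an adjusted p of 0.0866.

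MT1X had 136, 152 and 146 reads in knockout libraries and 94, 109 and 20 reads in parental libraries. These are 2.40, 2.76 and 2.42 CPM in knockout and 1.65, 1.83 and 0.352 CPM in parental libraries, again with parental replicate 3 lowest and no overlap between groups. The log2 fold change was 0.99 (SE 0.55, adjusted p = 0.24), and 0.49 without parental replicate 3, where it passed (adjusted p = 0.0142). Within each library MT1X followed MT2A: its reads were 1.42% to 1.71% of the MT2A reads in knockout and 1.52% to 1.80% in parental libraries.

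MT1F (chromosome 16, 56657694 to 56660698) was the third metallothionein gene of the set with more than a single read. It had 56, 67 and 73 reads in knockout libraries and 57, 65 and 30 reads in parental libraries, or 0.990, 1.22 and 1.21 CPM against 0.998, 1.09 and 0.528 CPM in parental libraries. The groups overlapped. Its log2 fold change was 0.38 (SE 0.31, adjusted p = 0.405), and 0.08 (adjusted p = 0.754) without parental replicate 3. MT1F reads were 0.585% to 0.754% of MT2A reads in knockout libraries and 1.04% to 2.29% in parental libraries, so the share of MT1F beside MT2A was lower in each knockout library.

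The other 4 type 1 genes gave almost no reads. MT1E had 1 read in knockout replicate 1 and MT1G had 1 read in knockout replicate 2, and neither had any in the other 5 libraries. MT1H and MT1M had 0 reads in all 6. At 3 counts per library, a level of up to 0.0544 CPM would have gone undetected, and no fold change can be given for these genes. They lie among the detected ones in the cluster: MT1E (56625475 to 56627112) and MT1M (56632233 to 56633986) between MT2A and MT1A, and MT1G (56666731 to 56668065, minus strand) and MT1H (56669814 to 56671129) between MT1F and MT1X.

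MTF1 lies on chromosome 1, from 37809567 to 37859620 on the minus strand. It had 1702, 1684 and 1800 reads in knockout libraries and 3243, 3206 and 4112 reads in parental libraries. Its level was 30.1, 30.6 and 29.8 CPM in knockout and 56.8, 53.7 and 72.3 CPM in parental libraries, so parental replicate 3 was the highest for MTF1 and the lowest for MT2A, MT1X and MT1F. MTF1 fell to 30.2 ± 0.381 CPM in knockout, against 60.9 ± 9.98 CPM in parental libraries (SD, n = 3 each), with a log2 fold change of -1.01 (SE 0.14, edgeR adjusted p = 0.00302). The call held in each alternative fit and with each library left out, with log2 fold changes between -1.10 and -0.92 and an adjusted p of at most 0.0247.

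**Figure D2:**
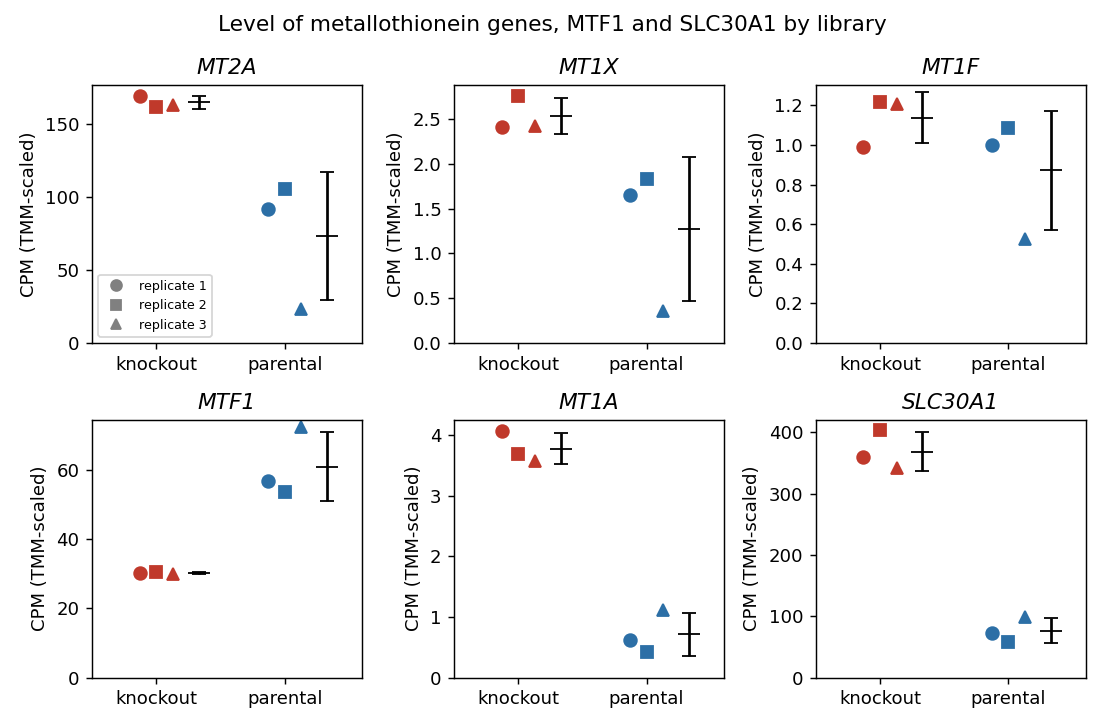
Level in CPM (y axes, linear, each from 0) of MT2A, MT1X, MT1F, MTF1, MT1A and SLC30A1 in each library, with knockout libraries left and parental libraries right, symbols for the replicate number and bars for mean ± SD (n = 3). The metallothionein genes MT2A and MT1X were low in parental replicate 3, at 23.1 and 0.352 CPM, where MTF1 was high, at 72.3 CPM.

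Over the set, 4 of 8 members had enough reads to be tested, and of these MTF1 fell, none rose and 3 did not pass. Among all 17809 genes tested, 13.3% were called higher in knockout and 14.3% lower, so 1 call in 4 genes is close to the 27.6% called over all genes. No member rose by edgeR at an unadjusted p under 0.05 either, and DESeq2 and limma-voom called none as rising, each with 1 at an unadjusted p under 0.05, as had edgeR without parental replicate 2. Without parental replicate 3, MT2A and MT1X rose and MTF1 fell, where 61.6% of 18372 genes tested were called, 30.8% in each direction. The median log2 fold change of the 4 tested members was 0.68, beside 0.02 over all genes tested, and 0.28 beside 0.04 without parental replicate 3. Groups did not overlap for 3 of the 4 tested members and for 49.8% of all genes tested.

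**Figure D3:**
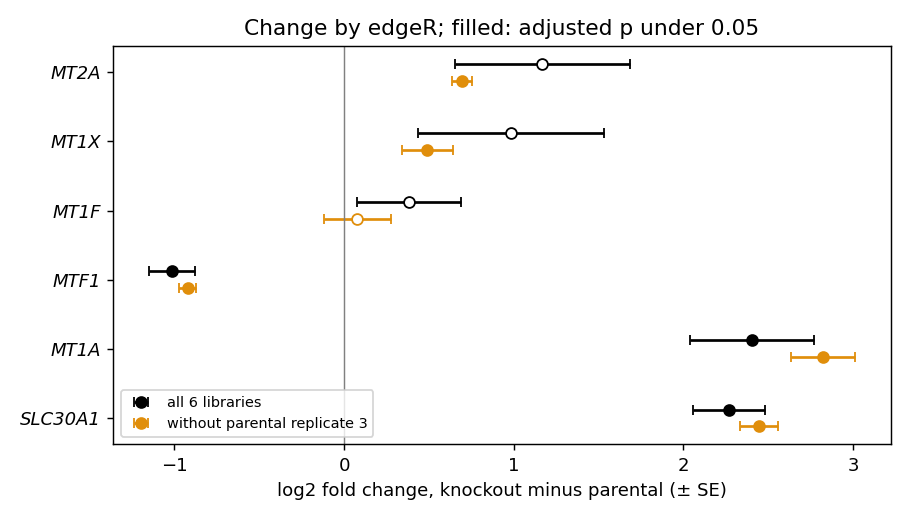
Log2 fold change of knockout minus parental libraries with its standard error (x axis) for 6 genes (y axis), over all 6 libraries in black and without parental replicate 3 in orange, filled where the adjusted p was under 0.05. MT2A moved from 1.17 with all libraries to 0.69 without parental replicate 3, with a smaller error, while MTF1 stayed near -1.01 and -0.92.

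To compare levels between genes, CPM was divided by the length of the main transcript in kilobases. In knockout libraries MT2A had a level of 205 to 215 CPM per kb, MT1X 5.34 to 6.13, MTF1 3.74 to 3.83 and MT1F 1.43 to 1.76, with no overlap between neighbours in this order. In parental libraries MT2A had 29.4 to 134 CPM per kb and MTF1 6.73 to 9.07, while MT1X, at 0.782 to 4.06, and MT1F, at 0.765 to 1.58, overlapped. With these lengths MTF1 stood under MT1X in each knockout library and over it in each parental one. The order in knockout rests on the MT1X transcript of 450 bases. All exons of MT1X together cover 1773 bases, and with that length MT1X would stand under MTF1 in both groups. The length of MT2A also depends on the annotation. Counted from the RefSeq start, which lies 385 bases downstream of the GENCODE one, its transcript has 401 bases in place of 786. Its mean level then becomes 411 CPM per kb in knockout and 183 CPM per kb in parental libraries.

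The 7 metallothionein genes were also summed, since a read counted for the wrong one of the 7 stays in the sum. Reads with no unique position, and reads counted for a relative outside the 7, are not in it. The sum was 173, 165 and 167 CPM in knockout and 94.3, 108 and 24.0 CPM in parental libraries, a log2 ratio of means of 1.16, or 0.73 without parental replicate 3. Of 10974 genes outside the family with a mean of at least 5 CPM, the 5 whose centred log2 level was nearest to the sum over the 6 libraries were GTF2IRD2B, ARHGEF40, FBXL16, AC018629.1 and ZSWIM4, with root mean square differences of 0.0667, 0.0773, 0.0851, 0.0882 and 0.0997 log2 units. ARHGEF40, which encodes a guanine nucleotide exchange factor, had 19.4, 21.0 and 22.2 CPM in knockout and 11.5, 12.99 and 2.85 CPM in parental libraries. Each of the 5 was lowest in parental replicate 3. These genes were picked for this pattern, so no test of them is given, and GTF2IRD2B has near-identical copies that can exchange reads.

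**Figure D4:**
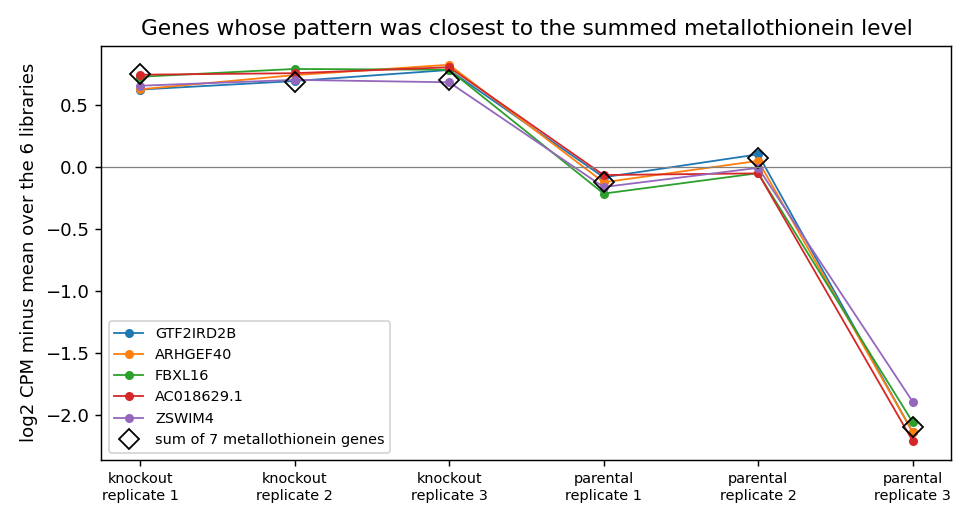
Centred log2 CPM (y axis, log2 CPM minus its mean over the 6 libraries) of the summed metallothionein genes (open diamonds) and the 5 nearest genes (lines) in each library (x axis). Values were alike in the 3 knockout libraries, lower in parental replicates 1 and 2, and lowest in parental replicate 3, where the sum was 24.0 CPM.

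Among the 13 other family symbols in the files, MT1A was the only one with enough reads to be tested, and it rose. MT1A, a further type 1 gene (chromosome 16, 56638666 to 56640087), had 230, 203 and 216 reads in knockout libraries and 35, 25 and 63 reads in parental libraries. That is 4.07, 3.68 and 3.58 CPM in knockout and 0.613, 0.419 and 1.11 CPM in parental libraries, with no overlap. The log2 fold change was 2.40 (SE 0.36, edgeR adjusted p = 0.00475), and 2.82 without parental replicate 3. Unlike MT2A, MT1X and MT1F, MT1A was highest of the parental libraries in replicate 3. MT1A reads were 2.19% to 2.40% of MT2A reads in knockout libraries, and 0.668%, 0.398% and 4.80% in parental replicates 1, 2 and 3, so they did not stand in a fixed proportion to MT2A. MT1A shared 5.76% of its windows of 50 bases with other genes and none at 75 bases. MT3, known from brain, and MT4, known from stratified epithelia, had 0 reads in all libraries, as had MT1B. Of the pseudogenes, MT1XP1 had 3, 4 and 7 reads in knockout and 8 in each parental library, MT1DP had 1 to 8 reads in knockout and 0 or 1 in parental libraries, and the rest had at most 4 reads in any library.

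Promoters of 4 members were in the RefSeq table (GRCh38.p14): MT2A, MT1X, MT1H and MTF1. The 250 bases before the RefSeq start were searched on both strands for the core of the metal response element, TGCACNC or TGCGCNC. The windows of 2 detected genes and of MT1H, which had 0 reads, are printed with matches in capitals. They are chr16:56608334-56608583 for MT2A, chr16:56682220-56682469 for MT1X and chr16:56669564-56669813 for MT1H, all on the plus strand.
MT2A: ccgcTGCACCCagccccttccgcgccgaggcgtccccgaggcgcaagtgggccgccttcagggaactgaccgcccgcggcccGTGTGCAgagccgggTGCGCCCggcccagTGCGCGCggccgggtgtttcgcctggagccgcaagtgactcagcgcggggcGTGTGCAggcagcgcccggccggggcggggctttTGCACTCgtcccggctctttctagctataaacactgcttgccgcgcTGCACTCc
MT1X: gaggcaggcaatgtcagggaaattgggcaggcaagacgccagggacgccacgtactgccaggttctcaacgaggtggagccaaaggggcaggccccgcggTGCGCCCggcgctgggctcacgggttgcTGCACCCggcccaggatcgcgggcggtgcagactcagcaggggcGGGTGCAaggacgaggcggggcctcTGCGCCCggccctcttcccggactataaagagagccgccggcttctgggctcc
MT1H: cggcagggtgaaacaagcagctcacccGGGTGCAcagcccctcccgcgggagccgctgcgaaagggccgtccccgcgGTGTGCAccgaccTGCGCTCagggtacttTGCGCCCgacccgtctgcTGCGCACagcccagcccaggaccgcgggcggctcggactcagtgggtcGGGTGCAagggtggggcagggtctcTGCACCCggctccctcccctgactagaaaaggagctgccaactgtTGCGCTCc
MT2A held 7 matches, MT1X 4 and MT1H 8, while the MTF1 window held 0. Of 35116 promoter windows of the same length, 24.8% held at least 1 match, 0.37% at least 4 and 0.0313% at least 7. MT1H, with 0 reads, thus held 1 match more than MT2A. In GENCODE a transcript of MT2A starts upstream of its window, and one of MT1X starts inside its window, 46 bases before the RefSeq start. No binding was measured here, and a match describes letters only.

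SLC30A1, the zinc exporter gene and MTF1 target, rose. It had 360.2, 403 and 342 CPM in knockout and 72.3, 58.6 and 98.6 CPM in parental libraries, and the groups did not overlap. Its log2 fold change was 2.27 (SE 0.21, edgeR adjusted p = 0.000739), and 2.45 without parental replicate 3. The SLC30A1 promoter window held 1 match to the metal response element, where 24.8% of all windows held at least 1. That window, 211579162 to 211579411 on the minus strand of chromosome 1, precedes the RefSeq start. In GENCODE the gene starts downstream, at 211578742, and the bases next to that start were not searched. Of 6 genes listed as MTF1 targets or partners, some of them known from mouse, SLC30A1 rose, 3 fell and 2 did not pass, with a median of -0.05, where 13.3% of all genes tested rose and 14.3% fell. With knockout replicate 1 or 3 or parental replicate 1 left out, SLC30A1 rose and 1 gene fell, in fits that called 15.1%, 15.2% and 19.6% of all genes. Without parental replicate 3 SLC30A1, SLC39A10 and GCLC rose and 3 fell, in a fit that called 61.6% of all genes. GCLC, which encodes a subunit of the enzyme that starts glutathione synthesis, had a log2 fold change of 0.42 (adjusted p = 0.37), and 0.83 without parental replicate 3 (1.02e-08). SLC40A1, the iron exporter ferroportin, fell to 9.11 ± 0.686 CPM in knockout, against 25.7 ± 3.22 CPM in parental libraries (-1.50, adjusted p = 0.000703). SELENOW, a selenoprotein gene, changed by -0.52 (adjusted p = 0.014), a call lost when any knockout library or parental replicate 1 was left out (at most 0.0849). PGF, a placental growth factor gene, changed by -1.57 (adjusted p = 0.0149), a call that ended when parental replicate 1 or knockout replicate 1 or 3 was left out (at most 0.07). SLC39A10, a zinc importer gene known in mouse to be repressed by MTF1, had a log2 fold change of 1.24 that did not pass (0.0544), and 1.77 without parental replicate 3 (7.53e-11).

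The counts of the metal lists stand beside 27.6% of all genes called over 6 libraries and 61.6% without parental replicate 3. Among 7 tested zinc exporters SLC30A1 rose and 6 did not pass (median 0.19). Of 11 tested zinc importers, SLC39A6 rose (0.72, adjusted p = 0.00281), SLC39A11 fell (-1.26, adjusted p = 0.00105) and 9 did not pass, with a median of 0.10. Without parental replicate 3, 5 exporters rose and 1 fell, and 6 importers rose and 2 fell, where 30.8% of all genes rose and 30.8% fell. Of 15 copper genes, STEAP2 rose (0.74, adjusted p = 0.00742), STEAP4, a metalloreductase gene, fell to 0.981 ± 0.0620 CPM in knockout against 49.4 ± 11.6 CPM in parental libraries (-5.65, adjusted p = 4.21e-05), and ATOX1, a copper chaperone gene, fell (-0.57, adjusted p = 0.042). The ATOX1 call did not hold when any knockout library or parental replicate 2 was left out (at most 0.154). The remaining 12 did not pass and the list's median was 0.01. Of 9 iron genes, SLC40A1 and NCOA4 fell and 7 did not pass (median 0.03). The NCOA4 change of -0.38 (adjusted p = 0.0385) did not hold when any library other than parental replicate 3 was left out (at most 0.163), with upper-quartile factors or with no low-count filter. Without parental replicate 3, 6 copper genes rose and 4 fell, and 5 iron genes rose and 2 fell, 10 of 15 and 7 of 9 called beside 61.6% of all genes.

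Genes tied to other known metallothionein inducers were also listed, both targets and regulators. Of 13 genes listed for the heat shock and cadmium response, 4 fell and 9 did not pass (median -0.50), where 14.3% of all genes fell. HSPA1B changed by -1.09, DNAJB1 by -1.04 and BAG3 by -0.91, with adjusted p = 0.000531, 0.000964 and 0.000896 by edgeR. HSPA1A and HSPA1B are near-identical and can exchange reads. HMOX1, named after its values were seen, had 121, 119 and 106 CPM in knockout and 28.98, 32.5 and 129 CPM in parental libraries, with overlap. Its log2 fold change was 0.86 (adjusted p = 0.33), and 1.86 without parental replicate 3 (7.07e-10). Of 8 genes listed as glucocorticoid-induced, SGK1 (3.68, adjusted p = 0.00125) and ERRFI1 (1.63, adjusted p = 0.00758) rose and 6 did not pass (median 0.26), 2 of 8 called beside 27.6% of all genes. The 6 include NR3C1, which encodes the glucocorticoid receptor itself, FKBP5 (-0.71, adjusted p = 0.491) and TSC22D3 (0.34, adjusted p = 0.772). Without parental replicate 3, 2 heat shock genes rose and 8 fell, in the fit that called 61.6% of all genes. In that fit 4 genes of the glucocorticoid list rose, FKBP5 among them, and 1, TSC22D3, fell.

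Genes on both sides of the cluster on chromosome 16 were read in the same way. They spanned 55802851 to 57253635, and the cluster itself, from MT4 to MT1X, 56565049 to 56684196. Of 13 tested neighbours 6 rose and 7 did not pass, with a median of 0.50, where 13.3% of all genes rose. CES1, a carboxylesterase gene that ends at 55833337, far from the cluster, changed by 1.72 (adjusted p = 0.000493) and OGFOD1 by 0.42 (0.0151). The listed genes nearest to the cluster on each side, BBS2 (0.50, adjusted p = 0.164) and NUP93 (0.01, 0.986), did not pass. For OGFOD1 the call did not hold when knockout replicate 1 or 2, or parental replicate 1 or 2, was left out (adjusted p at most 0.087), or with no low-count filter. Without parental replicate 3, 11 neighbours, BBS2 and NUP93 among them, rose and 2 did not pass, where 30.8% of all genes rose. The count was 2 without knockout replicate 1 or 2, 3 without knockout replicate 3, 5 without parental replicate 1 and 4 without parental replicate 2, in fits that called 14.6% to 20.7% of all genes.

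**Figure D5:**
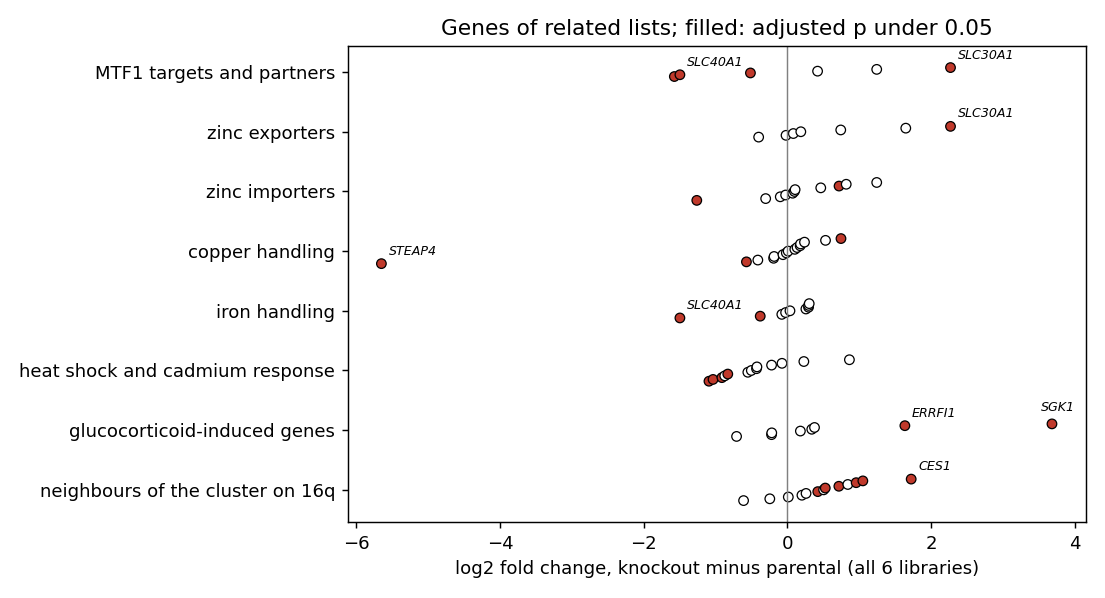
Log2 fold change of knockout minus parental libraries over all 6 libraries (x axis) for the tested genes of 8 related lists (y axis), 1 point per gene, filled where the adjusted p was under 0.05. SLC30A1, which stands in 2 lists, lies at 2.27, STEAP4 at -5.65 and SGK1 at 3.68, and most points of the zinc, copper and iron lists are open.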

How the data were processed

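The authors deposited raw counts of reads for each gene symbol, in a file for each library, made with TopHat2 2.1.1 and HTSeq 0.11.0 on hg38, per the submitters' processing notes. No source used here gives the annotation release, strand setting, read length or filters. The 5 classes of unassigned reads, 13.8% to 15.3% of each file, entered neither library sizes nor tests.

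Counts were filtered with filterByExpr, given TMM factors and tested with edgeR 4.0.16 in R 4.3.3 (robust quasi-likelihood F-test, two-sided, group as the only term), with Benjamini-Hochberg adjustment over 17809 genes and a threshold of 0.05. Standard errors come from the F value. The alternatives scaled by RLE or by upper quartiles, dropped the filter on low counts or required 1 CPM in 3 libraries, used DESeq2 1.42.0 or limma-voom (limma 3.58.1), blocked on the replicate number, or left out each library. The fit was also run on simulated data in which no library was set apart as parental replicate 3 is, so that run says nothing on the part of this library. Limits from counts cover counting error only.

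Positions, lengths, coding sequences and shared windows (exact matches) are from GENCODE 29, which held 56378 of the 59050 symbols. The members and lists were chosen with earlier results of these data known. The text names SMARCA4, the members, the other family symbols, the 5 genes nearest to the summed family and, from each list, the 3 called genes of smallest adjusted p. Where a list had no call, the 2 of highest mean were to be named. SLC39A10, GCLC, PGF, HSPA1A, HMOX1, NR3C1, FKBP5, TSC22D3, BBS2 and NUP93 were named after their values were seen. MT1IP and PER1 of the lists are not analysed here. A gene of the lists that the rule names, and a coding sequence, are not reported here.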

Additional observations from a re-analysis of the deposited data

How the results depend on the processing

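Over the 13 alternatives, MTF1 was the only member to fall in each, and no member rose in any but the fit without parental replicate 3, where MT2A and MT1X did, so with 1 library left out the number of members rising ranged from 0 to 2. Calls over all genes ranged from 2692 to 11325 with 1 library left out. The summed metallothionein level moved from a log2 ratio of 1.16 to between 0.73 and 1.51 with 1 library left out, to 1.10 with RLE factors and to 1.17 with all family symbols. Of 364 comparisons of 28 named genes with their alternatives, 332 kept their direction and side of the threshold, 24 lost a call and 8 gained one, and none changed direction. No pairing by replicate number was seen: deviations from the group means of same-numbered libraries correlated between -0.069 and 0.0011, and no knockout library matched its own number best. With 3 libraries per group and parental replicate 3 set apart, this check could not exclude pairing. With the replicate number as a block, 3040 genes were called, against 4912 without, 1 member was higher in knockout at an unadjusted p under 0.05, and the calls of ATOX1, NCOA4, OGFOD1, SELENOW and PGF were lost. MT1E, MT1G, MT1H and MT1M had 0 or 1 read per library, and the reason for this was not tested.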
